A study of Mus musculus with 12 samples.

Results

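The lungs of mice given a low dose of house dust mite extract through the nose were compared with the lungs of control mice. The groups were taken from the sample titles: 3 lungs labelled mixed asthma and 3 labelled control, which are 6 of the 12 arrays of the series. All mice were Balb/c, and each array carried RNA from the whole lung of 1 mouse. Mixed mice 15, 16 and 17 had received extract holding 0.75 DU of Der f and 0.75 DU of Der p (DU are development units of the maker) in 50 µl of PBS, 4 times at weekly intervals, with no injection into the abdomen and no alum. Control mice 1, 2 and 3 had received PBS alone by the same route. The other groups are used here for a test of mixed against neutrophilic lungs, for the spread in the fits of 12 and 11 arrays, and for side-by-side values: neutrophilic mice 23, 24 and 25 followed the weekly schedule with 7.5 DU of each allergen, and eosinophilic mice 7, 8 and 9 received 0.75 DU of each allergen, first by 3 intraperitoneal injections with alum and then by intranasal challenge. No source used here gives age or sex. The labels name the phenotype but give no cell count or lung function for a single mouse, so mixed is used below as a group name.

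House dust mite extract holds proteases and microbial products that act on airway epithelium, and the epithelium answers with cytokines and chemokines. In type 2 inflammation, IL-4, IL-5 and IL-13 drive eosinophils, mucus-producing goblet cells and alternatively activated macrophages, with STAT6 as the transcription factor downstream of the IL-4 receptor. In the neutrophilic form, IL-17, IL-1 and innate receptors act through NF-kB and C/EBP factors to raise ligands of CXCR2, the chemokine receptor that brings neutrophils into tissue. A mixed response holds both arms, and the comparison asks which genes of each arm, and of the resident lung, differ from control.

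Values are RMA log2 intensities on Affymetrix mouse Gene 1.0 ST arrays, so a difference of 1 is a 2-fold difference; intensity is not proportional to transcripts per cell, and different genes are not ranked by level here. Differences, also those in parentheses after a gene name, are mixed minus control on the log2 scale, tested with limma over 19937 genes in a fit of the 6 arrays, and a gene is called where its Benjamini-Hochberg adjusted p is below 0.05. The SDs of the 6 arrays were 1.845 to 2.036 in control and 1.774 to 2.042 in mixed lungs, and pairs of arrays correlated at 0.948 to 0.983 within groups and 0.922 to 0.962 between them. Lung was recognisable in both groups: Sftpc, surfactant protein C, had a mean of 14.09 ± 0.08 in control and 14.12 ± 0.09 in mixed lungs (SD, n = 3 each), and Scgb1a1, the club cell secretory protein, 12.64 ± 0.33 in control and 12.87 ± 0.14 in mixed lungs. Among markers of tissues that dissection can bring along, 0 of 9 heart and muscle genes, 0 of 5 thymus, 0 of 5 adipose and 0 of 3 red cell genes were called by limma, with 1, 0, 1 and 0 at an unadjusted p under 0.05. Of 5 mesothelial genes Lrrn4 (-1.08, adjusted p = 0.0114) was lower (adjusted p = 0.0608 to 0.0628 without control mouse 2 or mixed mouse 17). Nppa, an atrial peptide, differed by 2.099 without a call (adjusted p = 0.107), with 6.92, 5.195 and 6.08 in the control lungs and 5.94, 10.01 and 8.55 in the mixed lungs. The mean over the heart and muscle genes was 7.50, 7.01 and 7.41 in control and 7.15, 8.38 and 7.70 in mixed lungs. The adipose mean was 4.755, 4.609 and 4.637 in control and 4.481, 5.009 and 5.367 in mixed lungs. Thymus and red cell means ran from 4.40 to 4.745 and from 5.05 to 5.52 over the 6 lungs. Tissue carried along with single lungs was not tested.

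Of the 19937 genes, 1689 were called, which is 8.47%. They split into 683 higher (3.43%) and 1006 lower (5.05%) in mixed lungs. The rises were the larger changes: 172 genes rose and 20 fell at least 4-fold, and 63 rose and 0 fell at least 8-fold. In 1673 of the called genes the groups did not overlap in any of their 3 values. The same was true of 4592 genes in all (23%). The median difference over all genes was 0.005, but it was -0.163 over genes with a mean of 6 to 8 and -0.164 over genes with a mean of 8 to 10, a shift to be kept beside the modest falls below. The count of calls was 838 without control mouse 2 (458 higher, 380 lower), 913 without control mouse 1 (517 and 396) and 1111 without mixed mouse 17 (560 and 551). When the spread was pooled over all 12 arrays of the series, 94 genes were called, and 596 were called with 11 arrays, leaving out eosinophilic mouse 7, whose array stood apart.

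**Figure D1:**
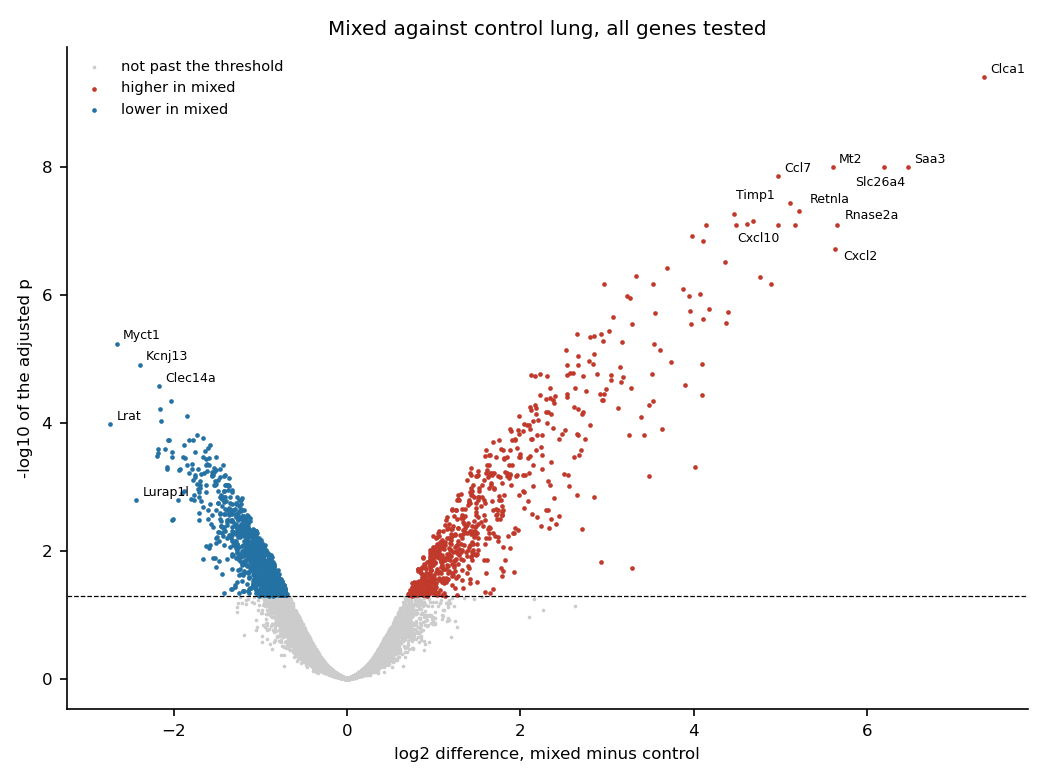
Each point is 1 of the 19937 genes, with the log2 difference (mixed minus control) on the horizontal axis and -log10 of the limma adjusted p on the vertical axis, and the dashed line marks an adjusted p of 0.05. The rises reach 7.35 (Clca1) and the falls -2.73 (Lrat), so the right arm is the longer, while 683 points above the line lie to the right and 1006 to the left.

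The 15 largest rises past the threshold without overlap held 7 chemokines (Cxcl2, Cxcl10, Ccl7, Ccl3, Ccl8, Cxcl5 and Ccl17), both goblet-associated genes Clca1 and Slc26a4, the acute-phase genes Saa3, Serpina3n and Timp1, the metallothionein Mt2, Retnla and Rnase2a. Clca1, a secreted goblet cell protein, read 4.27, 4.55 and 4.41 in the control lungs and 12.004, 11.73 and 11.55 in the mixed lungs, a difference of 7.35 (SE 0.21, adjusted p = 3.91e-10). Every mixed lung thus stood far above every control. Mt2, a zinc-binding metallothionein, read 8.25, 8.16 and 8.03 in the control lungs and 14.15, 13.51 and 13.59 in the mixed lungs. Mt2 was 48.6-fold higher (adjusted p = 9.93e-09). The 15 largest falls held genes of blood vessels (Kdr, Myct1, Clec14a, Cavin2, Meox2), Lrat, which stores retinol as esters, and airway genes such as Kcnj13, Cckar and Prss8. Lrat read 9.88, 9.47 and 9.89 in the control lungs and 7.57, 7.27 and 6.204 in the mixed lungs and was 6.64-fold lower (adjusted p = 0.000104). All 30 genes remained called when any 1 of the 6 arrays was left out and in the fit of 11 arrays, and 20 of the 30 (11 rises and 9 falls) in the fit of 12.

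**Figure D2:**
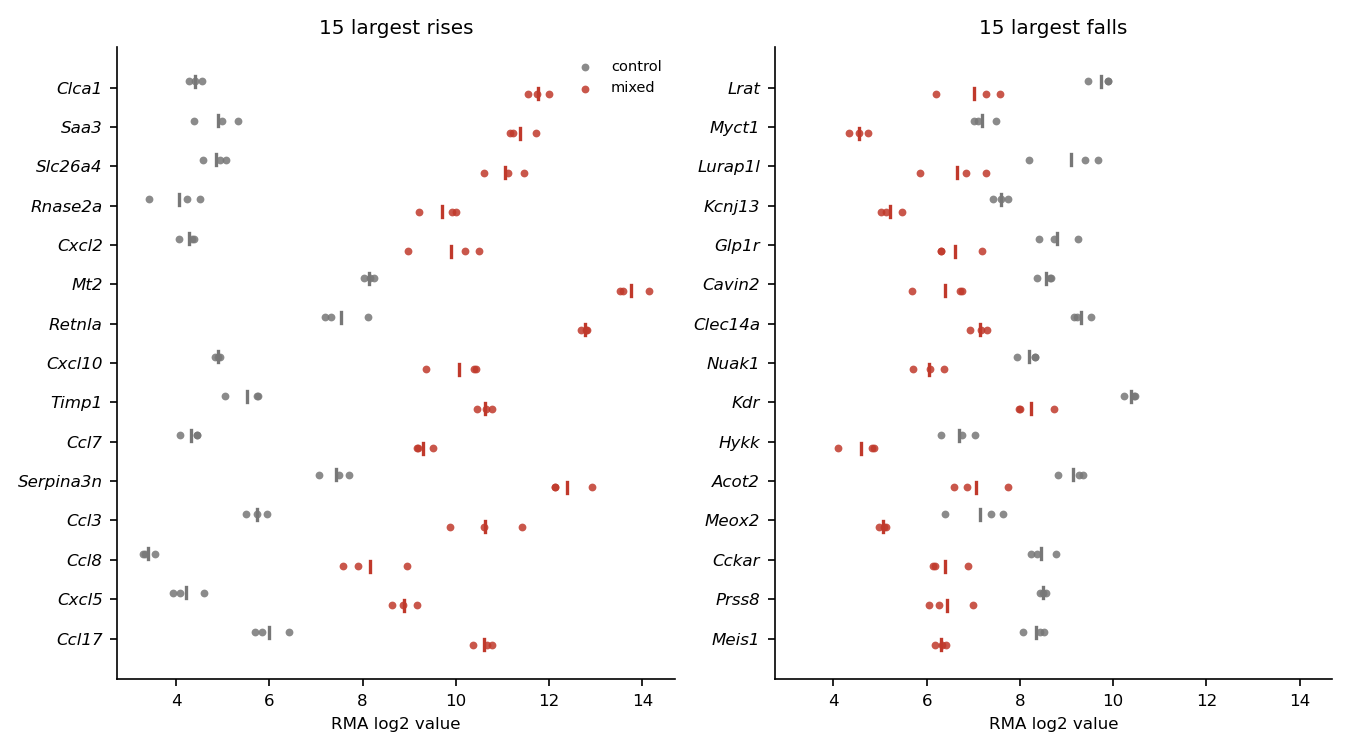
Each point is the RMA log2 value (horizontal axis) of 1 lung for the gene on that row, grey for the 3 control and red for the 3 mixed lungs, with a tick at each group mean. The 15 largest rises (left) and the 15 largest falls (right) were chosen for having no overlap, and the difference between the group means runs from 7.35 (Clca1) to 4.61 (Ccl17) on the left and from -2.73 (Lrat) to -2.03 (Meis1) on the right.

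The neutrophil arm opened with the ligands of CXCR2. Of 6 measured ligands 4 rose, with a list median of 3.297, and the calls for those 4 were kept without any 1 array and in the fits of 12 and 11 arrays. Cxcl2 read 4.39, 4.34 and 4.06 in the control lungs and 10.21, 8.98 and 10.49 in the mixed lungs. Cxcl2 was 49.4-fold higher (SE 0.32 log2, adjusted p = 1.91e-07). Cxcl5, made mainly by epithelium, read 3.93, 4.09 and 4.59 in the control lungs and 8.63, 9.15 and 8.86 in the mixed lungs. Cxcl5 was 25.6-fold higher (adjusted p = 6.87e-08). Cxcl1 read 5.66, 5.23 and 5.65 in the control lungs and 8.96, 8.82 and 8.74 in the mixed lungs (difference 3.33, adjusted p = 4.98e-07) and Cxcl3 read 4.63, 4.603 and 5.101 in the control lungs and 7.93, 7.87 and 8.32 in the mixed lungs (difference 3.27, adjusted p = 1.09e-06). In all 4 genes the lowest mixed lung was above the highest control. The lung-resident ligand Cxcl15 (0.44, adjusted p = 0.233) and the platelet ligand Ppbp (0.104, adjusted p = 0.954) were not called.

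The genes Cxcl1, Cxcl2 and Cxcl3 lie close together on chromosome 5, and their start sites share letters. In the RefSeq windows of GRCm38.p6 that run from 250 bases before to 50 bases after a gene's start, an NF-kB motif was searched on both strands; its matches on opposite strands can overlap by all but 1 base and were counted once per gene. It was present in 3 of 5 CXCR2 ligands with a window, against 11% of the 15613 measured genes with one. The stretches below are printed 5′ to 3′ on the strand of the gene, with the matched letters in capitals.
Cxcl1: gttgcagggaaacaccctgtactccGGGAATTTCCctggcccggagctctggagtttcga
Cxcl2: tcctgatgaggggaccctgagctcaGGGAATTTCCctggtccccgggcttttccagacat
Cxcl3: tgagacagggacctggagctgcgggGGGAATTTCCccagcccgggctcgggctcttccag
The Cxcl1 stretch is chr5:90891149-90891208 on the plus strand and its match lies 71 to 62 bases before the start site. The Cxcl2 stretch is chr5:90903777-90903836, plus strand, with the match at 97 to 88 bases, and the Cxcl3 stretch is chr5:90786003-90786062, plus strand, with the match at 73 to 64 bases. The same 10 letters were matched in all 3 genes. A match describes the letters and shows neither binding nor a cause of the rises.

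Genes of neutrophils themselves were higher too. Of 22 neutrophil granule and surface genes 15 rose and 0 fell (median 1.87). Of the calls 13 held without any 1 array, and 1 and 12 were called in the fits of 12 and 11 arrays. Ly6g, the surface antigen used to identify mouse neutrophils, read 4.79, 4.49 and 4.54 in the control lungs and 7.81, 7.25 and 8.29 in the mixed lungs. Ly6g was 9.05-fold higher (adjusted p = 5.49e-06). The calgranulin gene S100a9 read 7.498, 5.59 and 5.95 in the control lungs and 8.84, 8.69 and 9.21 in the mixed lungs (difference 2.57, adjusted p = 0.000969), with control mouse 1 above the other 2 controls but below every mixed lung. The receptor gene Cxcr2 read 7.64, 5.83 and 7.14 in the control lungs and 10.05, 8.57 and 9.32 in the mixed lungs (difference 2.45, adjusted p = 0.00281). Further rises were Clec4e (4.101, adjusted p = 3.69e-05), a receptor for microbial glycolipids, Il1r2 (3.396, adjusted p = 7.92e-05), the decoy IL-1 receptor, Mmp8 (2.95, adjusted p = 4.33e-05), neutrophil collagenase, and Trem1 (2.67, adjusted p = 5.95e-05). Genes of primary granules, which are transcribed in bone marrow precursors, were not called: Mpo (0.39, adjusted p = 0.51), Elane (-0.02, adjusted p = 0.973) and Prtn3 (0.21, adjusted p = 0.675). Among other granule genes of the list, Ltf and Ngp rose and Camp was not called. Ltf kept its call without any 1 array (highest limma adjusted p = 0.0221, without control mouse 3). Ngp lost its call without control mouse 1, 2 or 3 (adjusted p = 0.0515 to 0.0563). In whole lung, fewer cells of a type and less RNA per cell cannot be told apart, and the same holds for more cells against more RNA per cell in these and all later cell type lists.

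The type 2 arm rose in its chemokines. Of 9 eotaxins and other type 2 chemokines or receptors 6 rose and 0 fell (median 2.03). Of the calls 5 held without any 1 array, and 4 and 5 in the fits of 12 and 11 arrays. Ccl11, eotaxin-1, which draws eosinophils through CCR3, read 5.15, 4.89 and 5.695 in the control lungs and 9.82, 9.698 and 9.67 in the mixed lungs. Ccl11 was 22.4-fold higher (adjusted p = 8.06e-08). Ccl24, eotaxin-2, read 4.66, 4.21 and 4.54 in the control lungs and 6.82, 6.56 and 6.11 in the mixed lungs (difference 2.03, adjusted p = 0.000133). Ccl17, a CCR4 ligand that draws type 2 helper T cells, read 5.69, 5.85 and 6.42 in the control lungs and 10.67, 10.36 and 10.77 in the mixed lungs. Ccl17 was 24.5-fold higher (adjusted p = 7.87e-08). All 3 were without overlap, and so was Ccl22 (3.56, adjusted p = 1.92e-06), the other CCR4 ligand. Ccl8 read 3.55, 3.28 and 3.33 in the control lungs and 7.904, 7.58 and 8.96 in the mixed lungs, with mixed mouse 17 the highest and a difference of 4.76 (adjusted p = 5.18e-07). Of the receptors, Ccr8 (1.42, adjusted p = 0.0315) was called (adjusted p = 0.0552 to 0.102 without control mouse 1, control mouse 2, control mouse 3, mixed mouse 15 or mixed mouse 17), whereas Ccr3 (0.42, adjusted p = 0.245) and Ccr4 (0.55, adjusted p = 0.141) were not.

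The type 2 cytokines themselves showed smaller differences. Of 14 cytokine, alarmin and receptor genes 4 rose and 0 fell (median 0.35). Of the calls 3 held without any 1 array; 0 and 1 were called in the fits of 12 and 11 arrays. Il33, an alarmin held in the nuclei of alveolar type 2 and stromal cells, read 8.196, 8.31 and 7.32 in the control lungs and 11.398, 10.85 and 10.54 in the mixed lungs. Il33 was 7.94-fold higher (adjusted p = 2.97e-05). Il5, the survival factor of eosinophils, read 3.65, 3.696 and 3.82 in the control lungs and 4.83, 5.42 and 4.502 in the mixed lungs (difference 1.197, SE 0.24, adjusted p = 0.00778). Il4ra, the chain shared by the IL-4 and IL-13 receptors, read 9.69, 9.62 and 9.305 in the control lungs and 11.304, 10.69 and 10.95 in the mixed lungs (difference 1.44, adjusted p = 0.00133). Both were separate from control. Il13 read 4.86, 4.26 and 5.47 in the control lungs and 5.85, 5.49 and 5.29 in the mixed lungs; the groups overlapped and the difference of 0.68 was not called (adjusted p = 0.194). Il4 differed by 0.85 (adjusted p = 0.0652) and the epithelial alarmins Tslp (0.16, adjusted p = 0.798) and Il25 (-0.12, adjusted p = 0.842) were not called.

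Eosinophil markers gave 1 large value among small ones. Of 12 markers 3 rose and 0 fell, with a median of 0.35, and 1 was called in the fit of 12 arrays and 1 in that of 11. Rnase2a, a ribonuclease of the eosinophil-associated family, read 3.42, 4.24 and 4.51 in the control lungs and 9.201, 9.93 and 9.99 in the mixed lungs. Rnase2a was 50.2-fold higher (adjusted p = 8.06e-08). Members of that family are close copies of one another, so its probe set may also take up related transcripts. Whole-lung RNA does not show which cells the Rnase2a signal came from, and the family name does not settle it. Alox15 and Cd300lf, which are not limited to eosinophils, rose by 1.51 (adjusted p = 0.00142) and 1.801 (adjusted p = 0.0023). The defining granule genes were low and were not called: Epx, eosinophil peroxidase, read 4.21, 4.195 and 4.21 in the control lungs and 4.12, 4.801 and 3.86 in the mixed lungs (adjusted p = 0.945). Prg2, major basic protein, read 4.33, 4.04 and 4.45 in the control lungs and 4.33, 4.55 and 5.18 in the mixed lungs (adjusted p = 0.407). Siglecf (0.31, adjusted p = 0.461) and Il5ra (0.39, adjusted p = 0.313) were not called either. As background, eosinophil granule genes are transcribed mainly in bone marrow precursors, and these values are no count of eosinophils.

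Genes listed for alternatively activated macrophages were among the clearest rises. Whole-lung RNA does not show which cells these signals came from. Of 13 alternative activation genes 10 rose and 0 fell (median 1.65). Of the calls 9 held without any 1 array, and 2 and 8 were called in the fits of 12 and 11 arrays. Retnla, the resistin-like protein Fizz1, read 7.19, 7.31 and 8.12 in the control lungs and 12.69, 12.79 and 12.81 in the mixed lungs. Retnla was 37.3-fold higher (adjusted p = 4.93e-08). The mixed lungs differed little from one another. Arg1, arginase 1, read 4.70, 4.93 and 4.695 in the control lungs and 7.45, 7.195 and 7.64 in the mixed lungs (difference 2.65, adjusted p = 4.07e-06). Chil3 (4.11, adjusted p = 2.36e-06) and Chil4 (3.88, adjusted p = 8.03e-07), chitinase-like proteins whose close similarity may let probes share signal, rose, as did Pdcd1lg2 (2.54, adjusted p = 3.9e-05), the PD-1 ligand PD-L2, and Mrc1 (1.43, adjusted p = 0.00551), the mannose receptor. Of 13 alveolar macrophage markers Ctsk (2.204, adjusted p = 9.06e-05) and Plet1 (1.59, adjusted p = 0.000328) rose, Abcg1 fell by 1.15 with a call that was lost without some arrays (adjusted p = 0.118 to 0.148 without control mouse 1, control mouse 2, mixed mouse 16 or mixed mouse 17), and Marco (0.31, adjusted p = 0.488) and Pparg (-0.16, adjusted p = 0.786) were not called.

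STAT6 letters were searched as TTCNNNNGAA on both strands of the same windows; this palindrome reads alike on both. Among measured genes 7.3% of those with a window held a match, and 2 of the 12 largest rises with a window did: Retnla and Ccl17, both known targets of IL-4. Their stretches are shown because both genes belong to the type 2 arm.
Retnla: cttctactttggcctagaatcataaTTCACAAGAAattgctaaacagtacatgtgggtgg
Ccl17: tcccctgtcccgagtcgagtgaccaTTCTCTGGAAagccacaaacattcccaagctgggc
The Retnla stretch is chr16:48842439-48842498 on the plus strand, with the match 145 to 136 bases before the start site, and the Ccl17 stretch is chr8:94810274-94810333, plus strand, with the match at 154 to 145 bases. Over the 7 type 2 chemokine genes with a window, 1 held the letters.

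In the IL-17 axis 6 of 14 genes rose and 1 fell (median 0.58). Of the calls 5 held without any 1 array, and 1 and 3 were called in the fits of 12 and 11 arrays. Il6, a cytokine that helps induce Th17 cells and the acute phase, read 3.43, 3.51 and 3.86 in the control lungs and 5.89, 5.77 and 7.11 in the mixed lungs (difference 2.66, adjusted p = 0.000148). Zc3h12a (2.03, adjusted p = 0.00117), the RNase Regnase-1 that degrades cytokine messages, Csf2 (1.56, adjusted p = 0.00142), GM-CSF, and Nfkbiz (1.21, adjusted p = 0.00449) rose. Il17a read 4.996, 4.78 and 5.61 in the control lungs and 5.07, 5.10 and 5.48 in the mixed lungs and was not called (adjusted p = 0.913). Il17f rose by 0.88 (adjusted p = 0.0298), a call lost at adjusted p = 0.0551 to 0.143 without control mouse 1, control mouse 2, mixed mouse 16 or mixed mouse 17. The receptor subunit gene Il17re fell by 1.26 on the log2 scale, with a mean of 6.61 ± 0.25 in control and 5.35 ± 0.34 in mixed lungs (SD, n = 3 each, adjusted p = 0.00428).

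Inhibitors and early targets of NF-kB rose almost throughout: 15 of 17 were called higher and 0 lower (median 1.94). Of the calls 11 held without any 1 array, and 2 and 11 were called in the fits of 12 and 11 arrays. Nfkbia, which holds NF-kB in the cytoplasm, read 9.22, 9.24 and 8.87 in the control lungs and 11.42, 10.66 and 11.08 in the mixed lungs (difference 1.94, adjusted p = 0.000186). Acod1, the itaconate-making enzyme of activated macrophages, read 5.01, 4.27 and 4.92 in the control lungs and 9.71, 7.97 and 8.802 in the mixed lungs (difference 4.098, adjusted p = 1.21e-05), with mixed mouse 16 the lowest of its group. The deubiquitinase gene Tnfaip3 (2.75, adjusted p = 0.000175), Bcl3 (3.19, adjusted p = 1.93e-05), Socs3 (2.93, adjusted p = 4.02e-06), an inhibitor of IL-6 signalling, and Il10 (2.06, adjusted p = 0.000649) also rose. Tnf rose by 1.01 (adjusted p = 0.0375; adjusted p = 0.0971 to 0.178 without control mouse 1, control mouse 2, mixed mouse 15 or mixed mouse 17), and Il12b (0.12, adjusted p = 0.857) was not called. An NF-kB match was present in 6 of 15 of these genes with a window (40%), but also in 4 of 14 blood endothelial genes (28.6%), a list that fell, and in 2 of 12 of the largest rises and 2 of 13 of the largest falls. These shares were not tested.

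Acute-phase and antimicrobial genes also rose. Of 21 listed 17 rose and 0 fell (median 2.13). Of the calls 16 held without any 1 array, and 5 and 12 were called in the fits of 12 and 11 arrays. Saa3, the serum amyloid A protein made outside the liver, read 5.32, 4.97 and 4.39 in the control lungs and 11.73, 11.22 and 11.15 in the mixed lungs. Saa3 was 88.7-fold higher (SE 0.26 log2, adjusted p = 9.93e-09). Serpina3n, a protease inhibitor, read 7.71, 7.48 and 7.06 in the control lungs and 12.92, 12.13 and 12.12 in the mixed lungs (difference 4.97, adjusted p = 8.06e-08). Lcn2, which binds bacterial siderophores, read 9.81, 10.17 and 10.32 in the control lungs and 13.97, 13.36 and 13.59 in the mixed lungs (difference 3.54, adjusted p = 6.82e-07). None of these groups overlapped. Reg3g (4.18, adjusted p = 1.62e-06), a lectin that kills Gram-positive bacteria, Steap4 (4.07, adjusted p = 9.68e-07), a metalloreductase, Pigr (3.23, adjusted p = 1.05e-06), which carries IgA across epithelium, and Slpi (2.39, adjusted p = 0.00148), a protease inhibitor of airway fluid, rose. Hp (0.14, adjusted p = 0.828), haptoglobin, and Bpifa1 (-0.35, adjusted p = 0.776), an abundant upper airway protein, were not called. Orm1 to Orm3 and Saa1 to Saa3 are close copies, and their probe sets may share signal.

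C/EBP letters, searched as TTGCNNAA on both strands, were present in 11 of 18 acute-phase genes with a window (61.1%), against 11.3% of the measured genes. The 3 below are shown because their genes rose by over 3 log2 units.
Saa3: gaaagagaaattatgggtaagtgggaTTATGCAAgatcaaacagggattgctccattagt
Lcn2: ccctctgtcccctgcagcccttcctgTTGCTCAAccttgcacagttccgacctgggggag
Steap4: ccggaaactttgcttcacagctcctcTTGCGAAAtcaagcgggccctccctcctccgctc
The Saa3 stretch is chr7:46715742-46715801, minus strand, with the match 99 to 92 bases before the start site and in reverse orientation. The Lcn2 stretch is chr2:32387922-32387981, minus strand, with the match at 216 to 209 bases, and the Steap4 stretch is chr5:7960359-7960418, plus strand, with the match at 87 to 80 bases. This share was not tested.

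Airway mucus genes held the gene with the largest rise of the comparison, Clca1. Of 17 goblet cell and gel-forming mucin genes 9 rose and 1 fell (median 0.96). Of the calls 8 held without any 1 array, and 4 and 7 were called in the fits of 12 and 11 arrays. Besides Clca1, given above, Slc26a4, the anion exchanger pendrin, read 4.93, 4.57 and 5.07 in the control lungs and 11.46, 11.11 and 10.61 in the mixed lungs. Slc26a4 was 73.5-fold higher (adjusted p = 9.93e-09). Muc5ac, the inducible airway mucin, read 4.52, 4.79 and 5.24 in the control lungs and 7.67, 7.39 and 7.50 in the mixed lungs (difference 2.67, adjusted p = 9e-06). Muc5b, the constitutive one, read 5.72, 6.66 and 6.07 in the control lungs and 9.52, 9.16 and 8.54 in the mixed lungs (difference 2.92, adjusted p = 3.51e-05). Both mucins were higher in each mixed lung than in any control. Agr2 (2.23, adjusted p = 3.68e-05), which folds mucins, Tff2 (2.96, adjusted p = 3.51e-05) and Bpifb1 (3.04, adjusted p = 2.12e-05) rose. The goblet transcription factors Spdef (0.72, adjusted p = 0.0783) and Foxa3 (0.23, adjusted p = 0.658) were not called. Among 7 membrane mucins Muc4 (1.62, adjusted p = 0.000533) rose and 6 were not called, Muc1 among them (0.24, adjusted p = 0.611). The share called was 14.3%, against 8.47% of all genes.

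Monocyte chemokines rose in 9 of 12 listed genes and fell in 0 (median 1.58). Of the calls 8 held without any 1 array, and 2 and 6 in the fits of 12 and 11 arrays. Ccl7 read 4.44, 4.44 and 4.08 in the control lungs and 9.19, 9.52 and 9.18 in the mixed lungs. Ccl7 was 31.4-fold higher (adjusted p = 1.37e-08). Ccl2, the main ligand of CCR2, read 5.06, 4.096 and 5.51 in the control lungs and 8.71, 8.91 and 8.97 in the mixed lungs (difference 3.97, adjusted p = 2.83e-06). Ccl3 read 5.95, 5.51 and 5.74 in the control lungs and 10.595, 9.88 and 11.41 in the mixed lungs (difference 4.897, adjusted p = 6.75e-07). The groups were separate for all 3. The receptor gene Ccr1 (2.35, adjusted p = 0.000917) rose, while Ccr2 (0.17, adjusted p = 0.859) and Cx3cr1 (-0.75, adjusted p = 0.0948) were not called.

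Interferon-linked genes rose as well. Of 12 CXCR3 ligands and lymphoid chemokines or receptors 6 rose (median 1.13). Of the calls 5 held without any 1 array and 1 and 4 in the fits of 12 and 11 arrays. Cxcl10, which attracts activated T cells through CXCR3, read 4.94, 4.89 and 4.84 in the control lungs and 10.43, 9.36 and 10.39 in the mixed lungs. Cxcl10 was 36-fold higher (adjusted p = 8.06e-08). Cxcl9 read 4.97, 4.34 and 4.55 in the control lungs and 8.24, 7.73 and 9.595 in the mixed lungs (difference 3.901, adjusted p = 2.57e-05). Ccl20, the CCR6 ligand, read 4.53, 4.95 and 4.37 in the control lungs and 6.85, 7.83 and 9.64 in the mixed lungs (difference 3.49, adjusted p = 0.000661); mixed mouse 17 was the highest and mouse 15 the lowest of its group, and the difference was 4.12 without mixed mouse 15 and 2.72 without mixed mouse 17. Of 21 interferon-stimulated genes 16 rose (median 1.66). Of the calls 14 held without any 1 array and 3 and 11 in the fits of 12 and 11 arrays. Rsad2 (3.74, adjusted p = 1.12e-05), viperin, Ifit1 (3.48, adjusted p = 5.26e-05), Gbp5 (3.02, adjusted p = 3.58e-06), Iigp1 (2.97, adjusted p = 6.82e-07) and Mx2 (2.70, adjusted p = 0.00026) rose. The interferon genes themselves were not called: Ifng (0.57, adjusted p = 0.146) and Ifnb1 (0.01, adjusted p = 0.989). Of these genes with a window 5 of 16 held STAT letters TTCNNNGAA, against 8.99% of the measured genes.

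In the inflammasome and IL-1 family 8 of 22 genes rose and 1 fell (median 0.21). Of the calls 5 held without any 1 array, the rises numbering 5 without control mouse 2, and 1 and 6 were called in the fits of 12 and 11 arrays. Il1b read 7.63, 5.74 and 7.22 in the control lungs and 10.89, 9.92 and 10.07 in the mixed lungs (difference 3.43, adjusted p = 0.000154). Il1rn, the receptor antagonist, read 5.72, 5.77 and 5.61 in the control lungs and 10.19, 9.01 and 9.73 in the mixed lungs (difference 3.94, adjusted p = 1.05e-06). Agonist and antagonist of the IL-1 receptor were thus higher in the same 3 lungs. Il1f9 (3.25, adjusted p = 0.000154), IL-36 gamma, Casp4 (2.63, adjusted p = 2.81e-05), the caspase that senses intracellular LPS, and Il1a (2.44, adjusted p = 0.000175) rose. Casp1 rose by 0.72 (adjusted p = 0.0482) on a call that no leave-one-out fit kept (adjusted p = 0.0533 to 0.186 without control mouse 1, control mouse 2, control mouse 3, mixed mouse 15, mixed mouse 16 or mixed mouse 17). Nlrp3 (1.14, adjusted p = 0.0639), Pycard (0.17, adjusted p = 0.767) and Il18 (-0.59, adjusted p = 0.272) were not called.

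Of 17 pattern recognition genes 6 rose and 0 fell (median 0.99), a count of 11 without mixed mouse 16, 4 with 11 arrays and 1 with 12. Cd14 (4.37, adjusted p = 2.72e-06), the LPS co-receptor, Clec4d (2.299, adjusted p = 0.00232), Myd88 (1.99, adjusted p = 7.81e-05) and Tlr2 (1.402, adjusted p = 0.00369) were called, and Tlr4 (0.66, adjusted p = 0.0822), the LPS receptor, and Clec7a (1.17, adjusted p = 0.0621), dectin-1, were not. Among 16 complement genes 6 rose, each of them also without any 1 array, though 2 were called in the fit of 11 arrays and 0 in that of 12. They were Cfb (2.33, adjusted p = 6.75e-05), C1qa (1.49, adjusted p = 0.00412), C1qb (1.66, adjusted p = 0.000855), C1qc (1.97, adjusted p = 0.00476), C3ar1 (1.55, adjusted p = 0.00198) and Cfp (1.18, adjusted p = 0.00633).

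Of 13 genes of MHC class II and co-stimulation 5 rose and 0 fell (median 0.69), 3 without control mouse 2 and 8 without mixed mouse 16; 2 and 3 were called in the fits of 12 and 11 arrays. The co-stimulatory or activation genes Cd83 (2.85, adjusted p = 8.22e-06), Cd80 (2.11, adjusted p = 0.000125) and Cd86 (1.96, adjusted p = 0.000246) rose, as did Cd40 (0.92, adjusted p = 0.015), whose call was lost at adjusted p = 0.079 without control mouse 2. The class II gene H2-Eb1 rose by 0.95 (adjusted p = 0.0247; adjusted p = 0.0795 to 0.115 without control mouse 2, control mouse 3 or mixed mouse 17), whereas H2-Aa (0.74, adjusted p = 0.0587), H2-Ab1 (0.53, adjusted p = 0.305) and Cd74 (0.69, adjusted p = 0.158) were not called. Of 11 dendritic cell genes 4 rose and 0 fell (median 0.48), with 1 and 1 called in the fits of 12 and 11 arrays. Cd209a (1.72, adjusted p = 0.00219) and Ccl22 were called with every array left out in turn. Batf3 lost its call without control mouse 2 (adjusted p = 0.0701) and Itgax without mixed mouse 17 (adjusted p = 0.0525). Xcr1 (-0.13, adjusted p = 0.835), Clec9a (-0.08, adjusted p = 0.928) and Zbtb46 (-0.12, adjusted p = 0.869) were not called. Of 18 T cell genes 8 rose, 6 of them without any 1 array and 2 and 4 in the fits of 12 and 11 arrays. The genes that rose were genes of activation and regulation. Tnfrsf9, the co-stimulator 4-1BB, read 5.55, 5.03 and 5.79 in the control lungs and 10.04, 9.14 and 9.08 in the mixed lungs (difference 3.96, adjusted p = 1.75e-06), and Il2ra (3.16, adjusted p = 2.32e-05), Ctla4 (2.95, adjusted p = 4.35e-05), Icos (1.895, adjusted p = 0.000135) and Pdcd1 (1.34, adjusted p = 0.00477) rose. The lineage genes Cd3e (0.36, adjusted p = 0.686), Cd4 (0.38, adjusted p = 0.413), Cd8a (0.02, adjusted p = 0.978) and Foxp3 (0.79, adjusted p = 0.0908) were not called.

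Of 16 B and plasma cell genes 4 rose (median 0.23). Of the calls 3 held without any 1 array, and 0 and 2 in the fits of 12 and 11 arrays. Jchain, which joins polymeric IgA and IgM, read 6.81, 6.25 and 4.95 in the control lungs and 9.07, 9.49 and 11.504 in the mixed lungs (difference 4.02, adjusted p = 0.00049); the value was 3.28 without mixed mouse 17, the mouse with the highest level. Irf4 (2.52, adjusted p = 7.25e-06) and Pou2af1 (1.403, adjusted p = 0.00857) rose, whereas the mature B cell genes Ms4a1 (-0.71, adjusted p = 0.262), Cd79a (-0.05, adjusted p = 0.968) and Pax5 (-0.02, adjusted p = 0.98) were not called. Of 9 NK and cytotoxic genes 1 was called (11.1%, against 8.47% of all genes), Gzmb (1.79, adjusted p = 0.00277), which rose. Of 14 mast cell and basophil genes limma called 0 (median 0.21), with 3 at an unadjusted p under 0.05. Mcpt8 differed by 0.59 (adjusted p = 0.248) and Cpa3 by 0.22 (adjusted p = 0.686), both without a call.

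Vessel genes ran the other way. Of 24 blood endothelial genes 13 fell and 0 rose, with a median of -0.83 against 0.005 over all genes; 11 kept the call without any 1 array, and 2 and 9 were called in the fits of 12 and 11 arrays. Kdr, VEGF receptor 2, read 10.46, 10.46 and 10.23 in the control lungs and 8.73, 7.97 and 7.998 in the mixed lungs. Kdr was 4.43-fold lower (SE 0.24 log2, adjusted p = 9.15e-05). Myct1 read 7.49, 7.09 and 7.01 in the control lungs and 4.34, 4.73 and 4.55 in the mixed lungs. Myct1 was 6.31-fold lower (adjusted p = 5.71e-06). Clec14a, an endothelial lectin, read 9.53, 9.15 and 9.23 in the control lungs and 7.29, 6.94 and 7.17 in the mixed lungs. Clec14a was 4.5-fold lower (adjusted p = 2.61e-05). In each the highest mixed lung was below the lowest control. Calcrl (-1.85, adjusted p = 7.81e-05), a receptor for adrenomedullin, Aplnr (-1.73, adjusted p = 0.00088), Ednrb (-1.68, adjusted p = 0.000627), Tek (-1.53, adjusted p = 0.000573), the angiopoietin receptor, and Sox17 (-1.46, adjusted p = 0.00134) fell. The general endothelial markers were negative without a call: Pecam1 (-0.66, adjusted p = 0.101), Cdh5 (-0.69, adjusted p = 0.131) and Vwf (-0.097, adjusted p = 0.881). Lymphatic genes gave 0 calls of 6 in limma, with 1 at an unadjusted p under 0.05. Of 10 leukocyte adhesion genes 4 rose and 0 fell in the same lungs (median 0.88). Of the calls 3 held without any 1 array, and 1 and 2 were called in the fits of 12 and 11 arrays. Sele, E-selectin of inflamed vessels, read 4.701, 4.86 and 5.28 in the control lungs and 7.51, 7.84 and 7.23 in the mixed lungs (difference 2.58, adjusted p = 1.63e-05). Ackr1 (1.85, adjusted p = 0.0058) and Vcam1 (1.25, adjusted p = 0.00232) were higher, but Vcam1 was not called in the fits of 12 and 11 arrays (adjusted p = 0.522 and 0.0659). Icam1 lost its call without control mouse 1 or control mouse 3 (adjusted p = 0.0575 and 0.0609). The mean over the 24 endothelial genes was 9.74, 9.72 and 9.52 in the control lungs and 8.91, 8.42 and 8.46 in the mixed lungs, while that over the 22 neutrophil genes was 5.72, 5.22 and 5.42 against 7.58, 6.88 and 7.27. The neutrophil list and the endothelial list thus had opposite directions in the same RNA. The mast cell list gave 0 calls of 14, the NK list 1 of 9 and the B and plasma cell list 4 of 16. The last is 25%, against 8.47% of all genes. The part that a change of cell mix had in the falls was not tested.

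**Figure D3:**
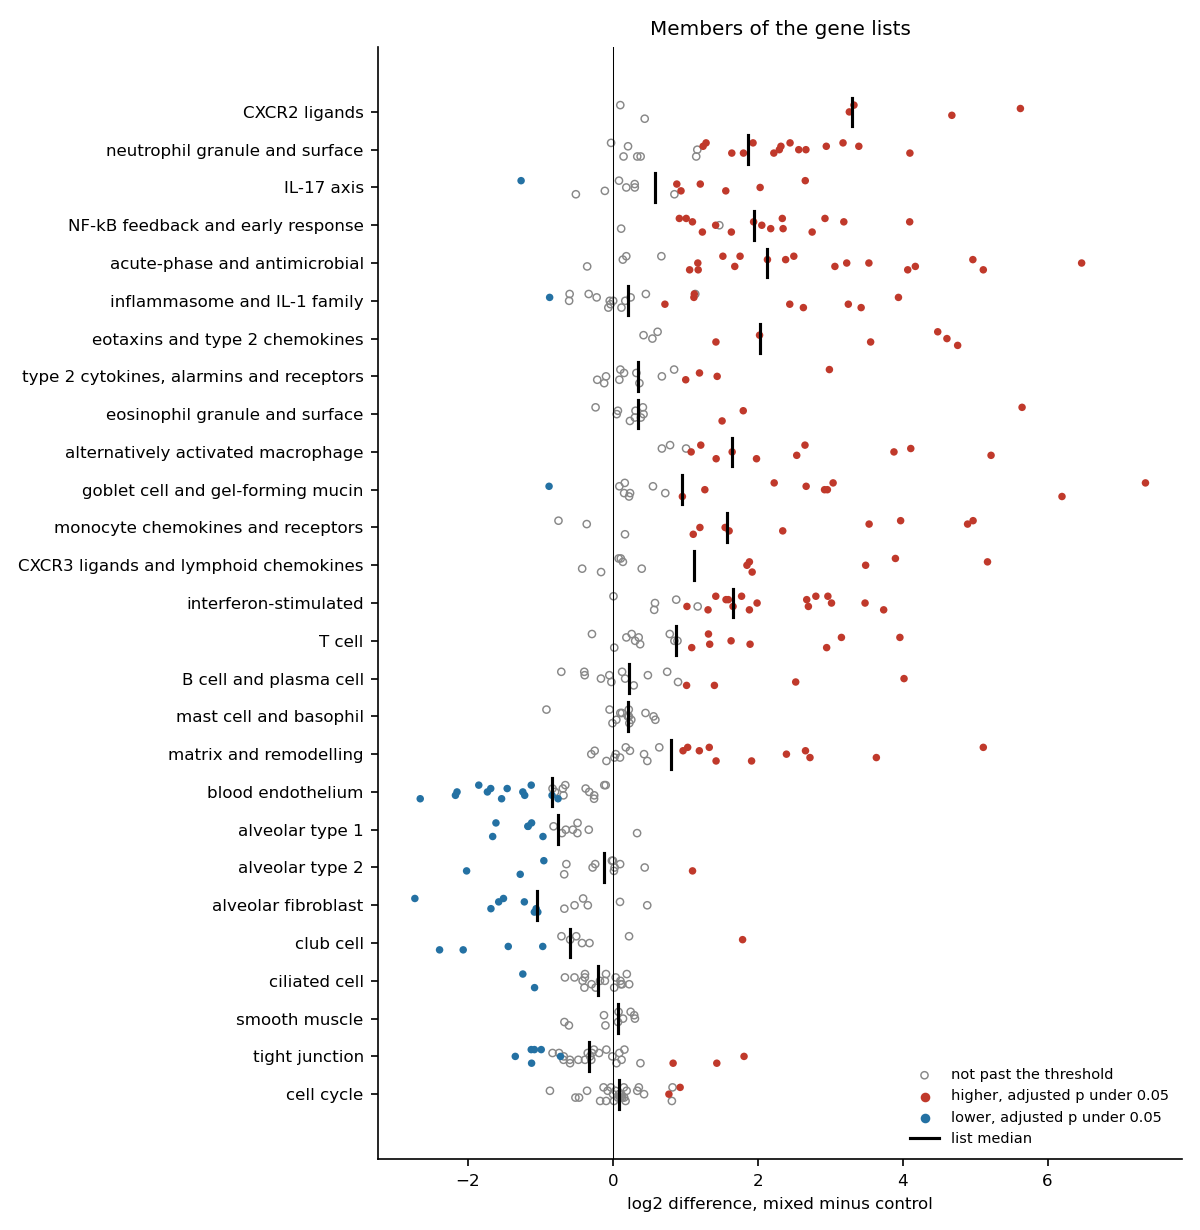
Each point is 1 measured member of a list, placed by its log2 difference (mixed minus control), filled where called in the fit of 6 arrays (red higher, blue lower) and open where not, with a bar at the list median. Chemokine, acute-phase, NF-kB and interferon lists lie to the right with medians of 1.1 to 3.3, while blood endothelium, alveolar type 1 and alveolar fibroblast lie to the left with medians of -0.83, -0.76 and -1.05.

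Alveolar genes were split. Of 14 alveolar type 1 genes 6 fell and 0 rose (median -0.76). Of the calls 3 held without any 1 array: Rtkn2 (-1.66, adjusted p = 0.000339), Akap5 (-1.61, adjusted p = 0.000564) and Clic5 (-1.17, adjusted p = 0.00479). The count was 3 without control mouse 1, control mouse 2, mixed mouse 16 or mixed mouse 17, 3 in the fit of 11 arrays and 0 in that of 12. Aqp5, the water channel of type 1 cells, differed by -1.17 (adjusted p = 0.0162; adjusted p = 0.0566 to 0.0842 without control mouse 1, control mouse 2, mixed mouse 16 or mixed mouse 17), and Ager (-0.49, adjusted p = 0.262) was not called. Of 14 alveolar type 2 genes 3 fell and 1 rose, with 5 falls without mixed mouse 15, and 0 and 1 were called in the fits of 12 and 11 arrays. Etv5, a transcription factor that maintains type 2 cells, read 8.704, 8.77 and 8.82 in the control lungs and 6.32, 6.57 and 7.34 in the mixed lungs. Etv5 was 4.05-fold lower (adjusted p = 0.000279), and Lpcat1 (-1.28, adjusted p = 0.00702), which makes surfactant lipid, fell. Sftpd, surfactant protein D, an innate collectin, read 10.48, 10.59 and 10.28 in the control lungs and 11.81, 11.23 and 11.61 in the mixed lungs. Sftpd was 2.15-fold higher (adjusted p = 0.00666), whereas Sftpc (0.03, adjusted p = 0.968), Sftpb (-0.64, adjusted p = 0.185) and Sftpa1 (0.003, adjusted p = 0.998) were not called. Surfactant genes listed for the same cell type therefore did not move as 1 group in these values. Sftpc read close to the highest values of the 6 arrays (maxima of 14.61 to 14.89), where a rise may not show.

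Alveolar fibroblast genes fell in 8 of 14 and rose in 0 (median -1.05). Of the calls 6 held without any 1 array, with 2 and 5 called in the fits of 12 and 11 arrays. After Lrat, the larger falls were Adh1 (-1.68, adjusted p = 0.00163), Wnt2 (-1.57, adjusted p = 0.00384), Fgfr4 (-1.51, adjusted p = 0.000339) and Itga8 (-1.22, adjusted p = 0.0038). Pdgfra (-0.41, adjusted p = 0.425) and Tcf21 (-0.53, adjusted p = 0.212) were not called. Smooth muscle genes gave 0 calls of 10 in limma (median 0.08), with 2 at an unadjusted p under 0.05. Neither Acta2 (0.08, adjusted p = 0.91) nor Myh11 (-0.12, adjusted p = 0.828) was one of those 2. Matrix and remodelling genes rose in 11 of 22 and fell in 0 (median 0.81). Of the calls 8 held without any 1 array, with 2 and 8 called in the fits of 12 and 11 arrays. Timp1, an inhibitor of metalloproteases, read 5.76, 5.74 and 5.04 in the control lungs and 10.78, 10.64 and 10.46 in the mixed lungs. Timp1 was 34.6-fold higher (adjusted p = 3.68e-08). Mmp12, macrophage elastase, read 7.25, 5.16 and 5.78 in the control lungs and 9.56, 9.31 and 10.23 in the mixed lungs (difference 3.64, adjusted p = 0.000125; 4.23 without control mouse 1), and Adamts4 (2.72, adjusted p = 6.75e-05), Thbs1 (2.66, adjusted p = 0.000154) and Tnc (1.195, adjusted p = 0.00551) rose. Collagen and elastin genes were not called: Col1a1 (0.18, adjusted p = 0.719), Col3a1 (0.43, adjusted p = 0.25) and Eln (0.02, adjusted p = 0.978).

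In the airway lining 4 of 11 club cell genes fell and 1 rose, 3 of those calls without any 1 array. The falls numbered 2 without control mouse 1 or 2 or without mixed mouse 16 or 17, and 2 and 2 genes were called in the fits of 12 and 11 arrays. Kcnj13, a potassium channel, read 7.59, 7.75 and 7.43 in the control lungs and 5.14, 5.01 and 5.46 in the mixed lungs. Kcnj13 was 5.24-fold lower (adjusted p = 1.22e-05), and Cckar, the cholecystokinin receptor, fell by 2.06 on the log2 scale (adjusted p = 0.000186). Scgb3a1 (1.79, adjusted p = 0.00276), a secretoglobin, rose, and Scgb1a1 (0.23, adjusted p = 0.683) and Scgb3a2 (-0.32, adjusted p = 0.572) were not called. Of 20 ciliated cell genes 2 fell, which is 10% and near the 8.47% of all genes called. The count was 0 without control mouse 1, 2 or 3 or without mixed mouse 16 or 17. Foxj1 (0.19, adjusted p = 0.745), the master factor of motile cilia, was not called. Among 15 basal and squamous genes 1 was called (6.67%, against 8.47% of all genes), Sprr1a, a cornified envelope protein. Sprr1a read 4.57, 4.84 and 4.298 in the control lungs and 9.03, 8.55 and 8.47 in the mixed lungs (difference 4.11, adjusted p = 1.43e-07), while Krt5 (0.36, adjusted p = 0.353) and Trp63 (-0.17, adjusted p = 0.758) were not called.

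Barrier genes moved in both directions. Of 30 tight junction genes 3 rose and 6 fell (median -0.33), and 3 of those calls were kept without any 1 array, with 0 and 2 called in the fits of 12 and 11 arrays. Cldn4, a sealing claudin, read 6.10, 6.16 and 6.01 in the control lungs and 8.27, 8.02 and 7.42 in the mixed lungs (difference 1.81, adjusted p = 0.00035), and Cldn1 (1.44, adjusted p = 0.00104) rose, while Magi3 (-1.34, adjusted p = 0.00569), a scaffold protein, fell. The scaffold gene Tjp1, ZO-1, fell by 1.08 (adjusted p = 0.00893; adjusted p = 0.0531 to 0.0575 without control mouse 1 or control mouse 2) and Cldn18, the alveolar claudin, by 1.12 (adjusted p = 0.0383; adjusted p = 0.14 to 0.159 without control mouse 1, control mouse 2, mixed mouse 16 or mixed mouse 17). Ocln (-0.31, adjusted p = 0.533) and Cldn3 (-0.34, adjusted p = 0.626) were not called. The number of falls was 1 without control mouse 2, 2 without control mouse 1, 2 without mixed mouse 17, 3 without mixed mouse 16 and 9 without mixed mouse 15. Of 17 adherens junction and desmosome genes 4 fell, Jup (-1.599, adjusted p = 0.00225), plakoglobin, and Nectin3 (-1.15, adjusted p = 0.00279) without any 1 array, and Cdh1 (-0.16, adjusted p = 0.804), E-cadherin, was not called. The count was 2 without control mouse 1 or 2 or without mixed mouse 16 or 17, and 7 without mixed mouse 15; 0 and 2 were called in the fits of 12 and 11 arrays.

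Ion transport genes followed no single direction: 2 of 18 rose and 5 fell, 2 of them (Slc26a4 and Kcnj13) without any 1 array. The falls numbered 1 without mixed mouse 17 and 2 without control mouse 1, control mouse 2 or mixed mouse 16. In the fits of 12 and 11 arrays 2 and 3 of the genes were called. Cftr (-0.64, adjusted p = 0.129) was not called. The epithelial sodium channel subunit Scnn1b fell by 1.13 (adjusted p = 0.0104; adjusted p = 0.0539 without mixed mouse 17). Among 6 bronchodilator and peptide receptors 3 fell: Glp1r, the receptor of glucagon-like peptide 1, read 8.72, 9.25 and 8.41 in the control lungs and 7.18, 6.31 and 6.31 in the mixed lungs. Glp1r was 4.58-fold lower (adjusted p = 0.000324), besides Ednrb above and Chrm2 (-1.05, adjusted p = 0.0406; adjusted p = 0.108 to 0.196 without control mouse 1, control mouse 2 or mixed mouse 16). Chrm3 (-0.21, adjusted p = 0.739), the muscarinic receptor of airway smooth muscle, was not called.

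Of 21 eicosanoid genes 4 rose and 1 fell, with 0 and 2 called in the fits of 12 and 11 arrays. Ptges (2.38, adjusted p = 0.000119), prostaglandin E synthase, and Ptgs2 (1.79, adjusted p = 0.000851), cyclooxygenase-2, were higher, and Alox5 (0.28, adjusted p = 0.63) and Ltc4s (0.03, adjusted p = 0.969), which make leukotrienes, were not called. Of 15 oxidant genes 3 rose: Sod2 (2.17, adjusted p = 1.81e-05), Gpx2 (1.97, adjusted p = 0.000129) and Hmox1 (1.62, adjusted p = 0.00045). Nos2 (-0.29, adjusted p = 0.592) was not called. Clock genes gave 2 rises and 4 falls of 17, with 2 and 5 called in the fits of 12 and 11 arrays. The calls for 5 held without any 1 array: Nfil3 rose by 3.29 (adjusted p = 2.83e-06), and Nr1d1 (-1.95, adjusted p = 0.0016), Dbp (-1.77, adjusted p = 0.00131), Per3 (-1.63, adjusted p = 0.00036) and Tef (-1.27, adjusted p = 0.00268) fell. The other rise was Bhlhe40 (1.16, adjusted p = 0.0278), adjusted p = 0.0622 to 0.0833 without control mouse 1, control mouse 2 or control mouse 3. Arntl (0.42, adjusted p = 0.389) and Clock (-0.53, adjusted p = 0.143) were not called, and no source used here gives the time of day of sampling. Of 29 cell cycle genes 2 rose (median 0.09), a share below the background of 8.47%, and the 2 calls, Mki67 (0.93, adjusted p = 0.0351) and Bub1b (0.78, adjusted p = 0.0445), were lost in leave-one-out fits (adjusted p = 0.0866 to 0.147 without control mouse 1, control mouse 2, control mouse 3 or mixed mouse 17; adjusted p = 0.0516 to 0.196 without control mouse 1, control mouse 2, control mouse 3, mixed mouse 15 or mixed mouse 17).

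MicroRNA genes were measured through their primary or precursor transcripts, which the array does not separate from the mature form. Of 300 measured 5 were higher and 2 lower, 2.33% against 8.47% of all genes, and 0 of the 7 calls were kept without any 1 array. The rises numbered 0 without control mouse 2, 1 without control mouse 1, 3 without mixed mouse 16 and 11 without mixed mouse 15. Mir155, whose product is induced in activated leukocytes, read 3.704, 3.88 and 4.34 in the control lungs and 4.71, 5.18 and 5.83 in the mixed lungs (difference 1.26, adjusted p = 0.0131; adjusted p = 0.0539 to 0.0682 without control mouse 1, control mouse 2 or mixed mouse 17). Mir15a read 8.24, 7.44 and 8.06 in the control lungs and 6.14, 6.82 and 7.20 in the mixed lungs and fell by 1.19 (adjusted p = 0.0208; adjusted p = 0.0555 to 0.104 without control mouse 1, control mouse 3 or mixed mouse 15). Their main mature products are printed from RefSeq, 5′ to 3′, with the seed (bases 2 to 8) in capitals, to show that the 2 share no seed.
mmu-miR-155-5p: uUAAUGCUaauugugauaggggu
mmu-miR-15a-5p: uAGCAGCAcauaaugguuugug
In GRCm38.p6 the first lies at chr16:84714143-84714165 on the plus strand and the second at chr14:61632075-61632096 on the minus strand.

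Against the neutrophilic lungs, which had received 10 times the dose on the same schedule, no gene was called in a limma fit of those 6 arrays (0 of 19937, 0%), with 1529 genes at an unadjusted p under 0.05 and a smallest adjusted p of 0.234. Leaving out neutrophilic mouse 23 gave 2 calls, and a fit of 9 arrays without that mouse and eosinophilic mice 7 and 9 gave 53 (31 higher and 22 lower in mixed lungs). The arrays of mice 23, 7 and 9 had SDs of 1.514, 0.995 and 1.522, the lowest of the series. A missed threshold with 3 lungs a group does not show that the doses act alike, and the intervals were wide. Mixed minus neutrophilic differences of goblet genes were Clca1 0.44 (95% interval -0.14 to 1.02) and Slc26a4 0.35 (95% interval -0.37 to 1.07). On the neutrophil side they were Cxcl5 0.14 (95% interval -0.69 to 0.97), Cxcl2 0.96 (95% interval -0.82 to 2.75) and Ly6g 0.09 (95% interval -1.296 to 1.48). In the interferon group Cxcl10 -0.46 (95% interval -2.06 to 1.15) had a point estimate below 0 and an interval that reached past 0. Among the 15 rises, mixed minus neutrophilic intervals lay above 0 for Rnase2a (1.28, 0.47 to 2.097) and Retnla (0.57, 0.014 to 1.12). Among the 15 falls they did so for Lrat (1.21, 0.43 to 1.985) and Kcnj13 (0.65, 0.09 to 1.203). The same held for Cckar (0.67, 0.026 to 1.31) and Meis1 (0.67, 0.096 to 1.25). That of Myct1 (-0.62, -1.233 to -0.009) lay below 0. The other rises and falls had intervals that included 0, and no interval was adjusted for the number of genes. The 15 rises and 15 falls were chosen by values of the same mixed lungs, and the intervals make no allowance for that choice. They also include neutrophilic mouse 23.

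Levels in the other groups are placed beside those above as values, without a comparison. In neutrophilic mice 23, 24 and 25 Clca1 read 11.62, 11.203 and 11.13, Ccl11 8.93, 9.66 and 9.61, Cxcl5 7.86, 9.14 and 9.22, Ly6g 5.96, 8.38 and 8.73 and Kdr 8.17, 7.71 and 8.51. Neutrophilic mouse 23 was the lowest of its group for Cxcl5 and Ly6g. In eosinophilic mice 7, 8 and 9 the readings were 5.88, 10.01 and 11.15 for Clca1, 6.66, 9.53 and 7.32 for Ccl11, 5.32, 5.59 and 5.07 for Cxcl5, 5.24, 6.41 and 4.77 for Ly6g and 5.74, 8.99 and 9.34 for Kdr, with the caution that the array of mouse 7 stands apart from all others.

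**Figure D4:**
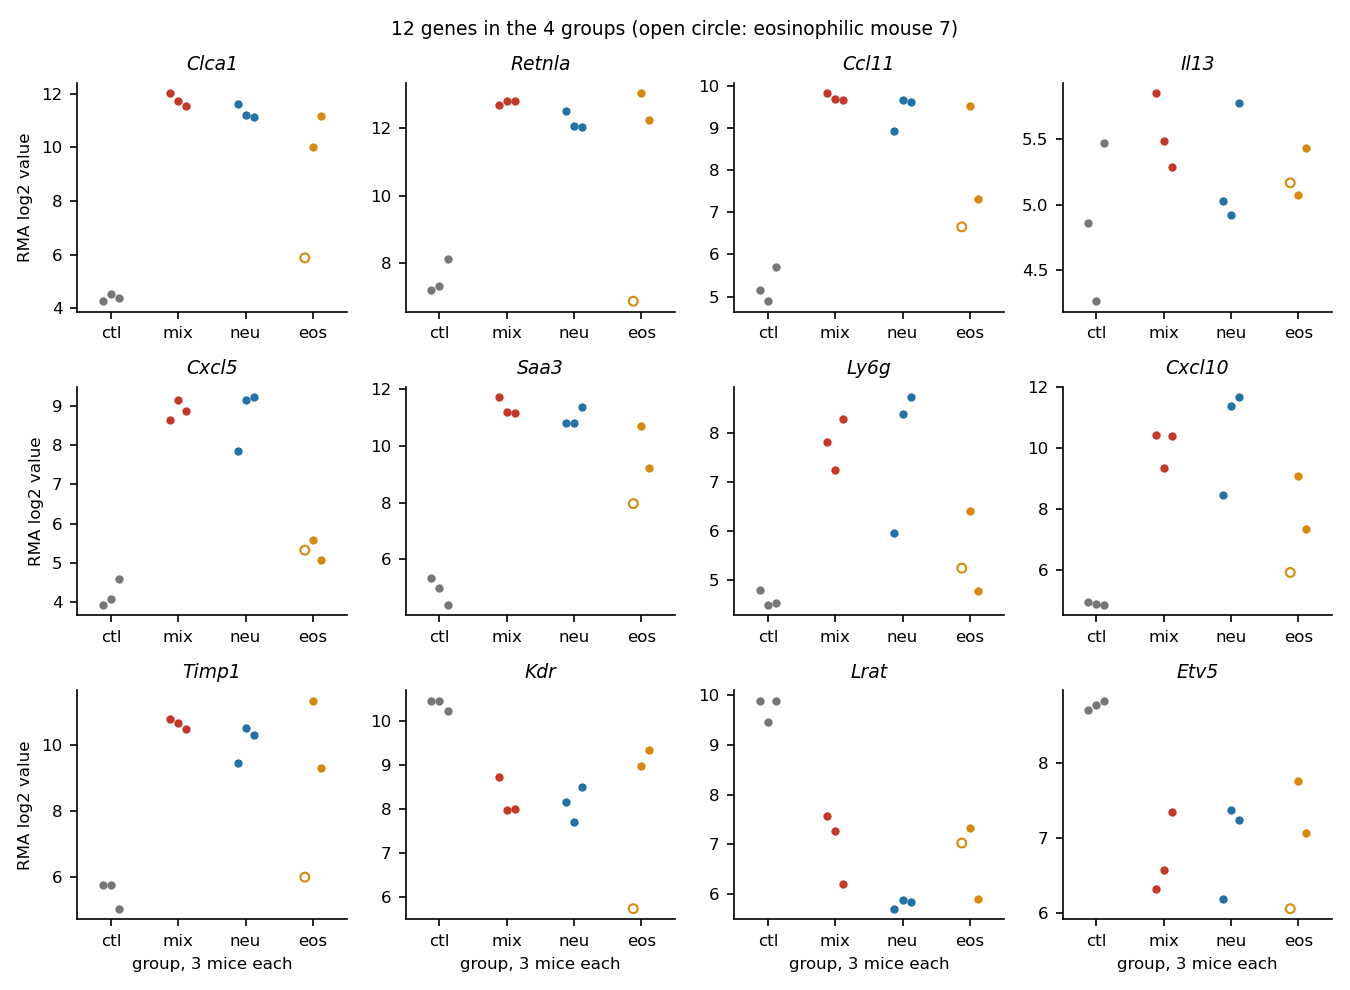
Each panel shows the RMA log2 value of 1 gene (vertical axis, scaled to that gene) in 3 control (ctl), 3 mixed (mix), 3 neutrophilic (neu) and 3 eosinophilic (eos) lungs, 1 point for each mouse, and the open circle is eosinophilic mouse 7. Mixed lungs sit apart from control lungs in 11 of the 12 panels, and overlap them for Il13. The 12 genes were picked for display, so this count is no result. Clca1, Retnla, Cxcl5, Saa3, Cxcl10, Timp1, Kdr and Lrat come from the rises and falls chosen for having no overlap. Of all genes, 23% had no overlap between control and mixed lungs.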

How the data were processed

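Total RNA of 12 whole lungs was labelled from 300 ng and hybridised to Affymetrix mouse Gene 1.0 ST arrays, per the labels. The deposited values are log2 intensities for each probe set, which the authors obtained from Affymetrix Expression Console by the RMA method, according to the submitters' processing notes. No source used here gives versions, the log base was read from the range of the values, and no scanner files were used. RMA adjusts for background, matches quantiles and combines probes, which compresses differences of dim genes. The deposited arrays still differed in their quartiles.

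Of 34760 probe sets, 21640 had a single gene symbol, 1321 several and 11799 were not listed. Each of 19937 genes was represented by its brightest probe set (mean of 12 arrays), and 954 had more than 1. Entrez IDs of 21553 probe sets were matched in RefSeq (GRCm38.p6).

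Log2 values of the 6 arrays were fitted in R 4.3.3 with limma 3.58.1 (lmFit, eBayes without trend, two-sided, Benjamini-Hochberg over 19937 genes, threshold 0.05), and mixed against neutrophilic lungs likewise. The same code was tested on simulated data. Nothing in the labels gives a batch or scan date. Each array is 1 mouse, and the number of arrays limits the precision.

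Named genes were the 15 largest rises and 15 largest falls past the threshold without overlap, without predicted, clone, microRNA, small nucleolar or olfactory-type names, and any member of a gene list whatever its p. The members, lists, motifs and rules were chosen with earlier results of these data known. Alternatives were other sets of arrays in the fit, 2 filters on dim genes, centring, quantile normalization, trend with robust settings, the mean of a gene's probe sets, all probe sets, and each array left out.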

Additional observations from a re-analysis of the deposited data

Results flagged for a closer look

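The probe sets that the annotation used here does not list with a gene took no part in the comparison. When all 34760 probe sets were tested together with limma, 63 of these 11799 were called, 39 higher and 24 lower in mixed lungs, beside 761 of the 22961 listed ones. They are reported as a signal in data outside the gene-level comparison, and no gene is named for them. Groups of 3 lungs are too small for a test of single lungs that stand apart.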

How the results depend on the processing

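The genes called in mixed against control lungs numbered 1689 with the 6 arrays, 94 with all 12 arrays in the fit, 596 with 11 arrays and 824 when all 34760 probe sets were tested. Leaving out 1 array gave 838 to 2058 calls. Both dim filters, centring, quantile normalization, trend with robust settings, the mean of probe sets, the fit of 9 arrays, and leaving out control mouse 3 and mixed mouse 16 together (chosen after seeing the data) gave 1580 to 2044. The fits of 12 and 11 arrays keep the same differences and change only the pooled spread. Mixed against neutrophilic lungs gave 0 calls in the planned settings except 53 with 9 arrays and, over leave-one-out fits, 0 to 2. All 30 genes of the largest rises and falls kept their direction in every alternative run on them. No paired analysis was possible because the groups share no replicate numbers in the labels. A group size of 3 lungs and unknown background levels limit what can be said of dim genes: of 3780 genes with a mean under 4, 3 were called.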

Other observations

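Some groups of genes outside the lists above also differed; they were chosen after their values were seen and are given as a description. Of 12 measured immunoglobulin chain genes 6 were higher and 0 lower (median 2.49), Ighm (3.15, adjusted p = 1.35e-05), the IgM heavy chain, among them, beside the rise of Jchain. Variable chain genes are close copies of one another, and their probe sets may share signal. Of 4 Fc gamma receptor genes 3 rose: Fcgr2b (2.62, adjusted p = 5.52e-05), the inhibitory receptor, Fcgr3 (1.904, adjusted p = 0.000186) and Fcgr4 (1.21, adjusted p = 0.0342; adjusted p = 0.0726 to 0.153 without control mouse 2, control mouse 3, mixed mouse 15 or mixed mouse 17). Of 4 metallothioneins 2 rose, Mt2 and Mt1 (4.15, adjusted p = 8.06e-08). Other single genes that rose were Slc7a11 (4.36, adjusted p = 3.03e-07), the cystine transporter, Ch25h (4.46, adjusted p = 5.42e-08), a cholesterol hydroxylase, and Slc39a14 (3.05, adjusted p = 1.8e-05), a zinc and iron importer.

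In 3 families of developmental signalling most members were not called, and the calls were falls. Of 18 Notch ligands, receptors and Hes or Hey genes 0 rose and 4 fell (median -0.27): Dll4 (-2.02, adjusted p = 0.000338), the endothelial Notch ligand, Hey1 (-1.39, adjusted p = 0.00352), Hes1 (-1.51, adjusted p = 0.0176; adjusted p = 0.0691 to 0.0888 without control mouse 1, control mouse 2, mixed mouse 16 or mixed mouse 17) and Heyl (-0.85, adjusted p = 0.0249; adjusted p = 0.0749 to 0.141 without control mouse 1, control mouse 2 or mixed mouse 16). Of 15 Bmp ligands and Id genes 5 fell (median -0.22), with Bmp4 (-1.54, adjusted p = 0.00416) and Bmp6 (-1.45, adjusted p = 0.00154) the largest, and of 29 Wnt ligands and Fzd receptors 6 fell (median -0.08), with Fzd7 (-1.34, adjusted p = 0.00175) and Fzd2 (-1.25, adjusted p = 0.00237) besides Wnt2. Of 5 flavin monooxygenase genes 3 fell: Fmo1 (-1.79, adjusted p = 0.000514), Fmo2 (-1.37, adjusted p = 0.00329) and Fmo5 (-1.49, adjusted p = 0.00176). Of 57 cytosolic ribosomal protein genes limma called 0, with 2 at an unadjusted p under 0.05 and differences of -0.28 to 0.53.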
